A study of Rattus norvegicus with 12 samples.

Results

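The genes described here encode 1 ligand and 5 receptor components of vasodilator peptide signalling: adrenomedullin (Adm), the calcitonin receptor-like receptor (Calcrl), the receptor activity modifying proteins Ramp1, Ramp2 and Ramp3, and the receptor VPAC1 for vasoactive intestinal peptide (Vipr1). Every probe set whose platform annotation gave one of these symbols alone was taken, which left 8 probe sets for 6 of the 14217 annotated genes. Vipr1 and Calcrl had 2 probe sets each, and all 8 passed the filter on low values.

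Whole-lung RNA was hybridised to 12 Affymetrix rat expression arrays, and all animals were male and of the Sprague-Dawley strain. Congestive heart failure (CHF) followed 9 weeks after a clip was placed on the aorta above the coronary arteries of juvenile rats weighing about 91 g, a pressure-overload model in which pulmonary hypertension is secondary to left heart failure with preserved ejection fraction. Sham rats had the operation without the clip. Within each surgery group, rats received placebo or ketotifen, a mast cell stabilizer with antihistamine activity, at 1 mg per kg body weight per day in the drinking water from day 1 after surgery. Each of the 4 groups (sham placebo, CHF placebo, sham ketotifen and CHF ketotifen) held 3 arrays. The labels do not name the animal behind each array, so p-values measure the spread between these arrays, which may in part be technical.

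Adrenomedullin, calcitonin gene-related peptide (CGRP) and vasoactive intestinal peptide (VIP) relax vascular smooth muscle through receptors that couple to Gs, adenylyl cyclase and protein kinase A. CALCRL reaches the cell surface and binds ligand only as a partner of a RAMP: with RAMP1 it forms the CGRP receptor, and with RAMP2 or RAMP3 it forms adrenomedullin receptors. In the lung, CALCRL and RAMP2 are abundant in the endothelium, where adrenomedullin acts on barrier function and vascular tone. VPAC1 is a receptor for VIP.

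Values are GCRMA log2 intensities, in which probe sets without signal lie between about 2 and 4. They were compared with limma in one fit of all 12 arrays. A probe set was called at an adjusted p below 0.05 (Benjamini-Hochberg over 16536 probe sets), and differences are log2 differences of group means ± SE. Levels of different probe sets are not compared with each other, because each probe set has its own affinity.

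Surgery was accompanied by a lower Vipr1 signal and a higher Ramp3 signal. Averaged over the placebo and ketotifen arms, both Vipr1 probe sets fell in CHF, by 1.48 ± 0.21 (adjusted p = 0.00342, 2.80-fold lower) and by 1.54 ± 0.33 (adjusted p = 0.0120), and Ramp3 rose by 1.41 ± 0.34 (adjusted p = 0.0191, 2.65-fold higher). Ramp1, Ramp2, Calcrl and Adm were not called in that average. The 3 called probe sets of 8 stand beside 21.0% of all probe sets called in either direction in the same comparison, 11.0% higher and 9.92% lower. Of the 8 probe sets, 1 was higher and 1 lower in CHF with no overlap between surgery groups in either arm, against 6.07% and 4.54% of all probe sets.

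**Figure D1:**
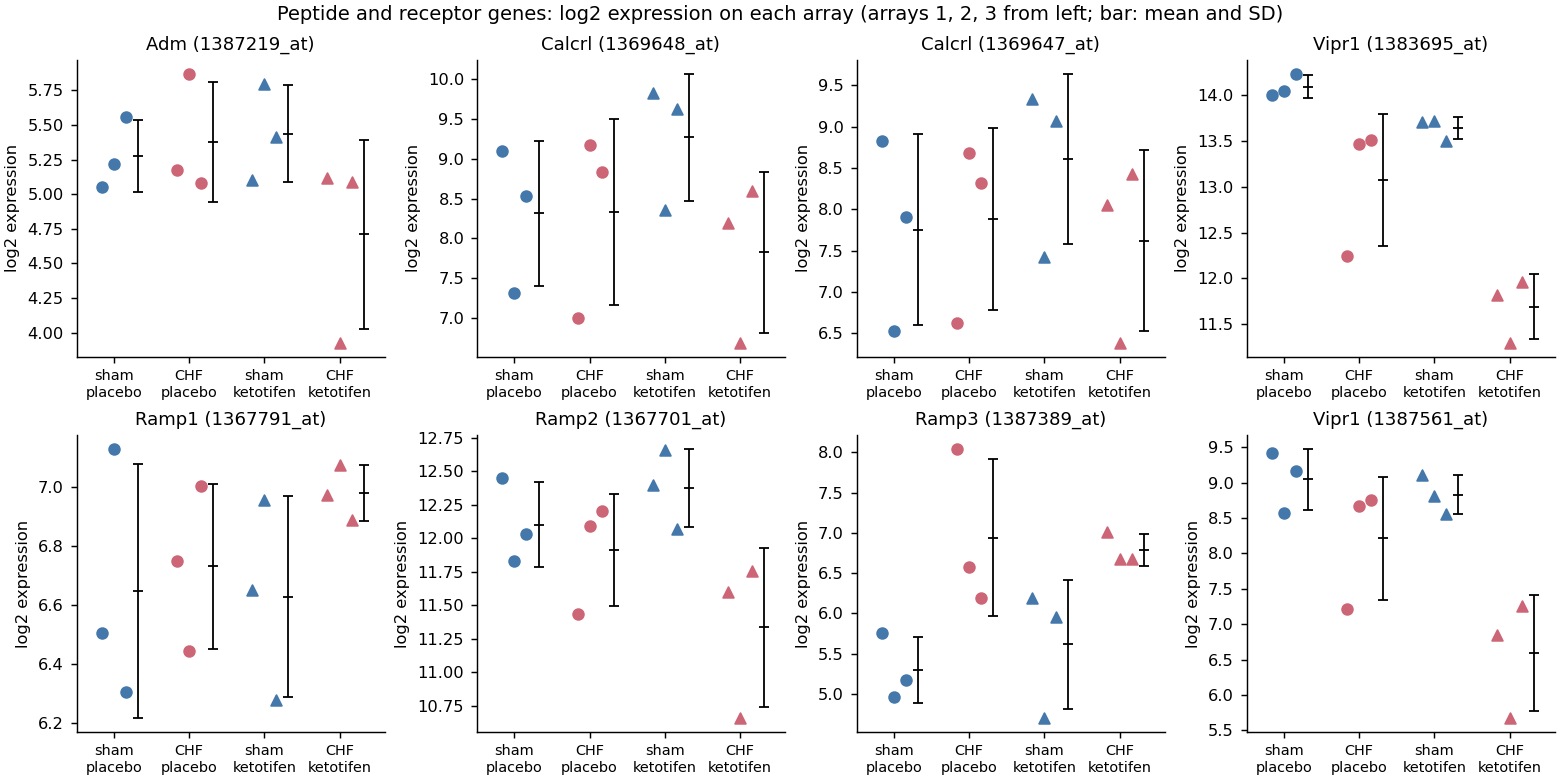
GCRMA log2 signal (vertical axis) of the 8 probe sets of Vipr1, Calcrl, Ramp1, Ramp2, Ramp3 and Adm, with 1 point per array in the order 1, 2, 3 from the left, the 4 groups along the horizontal axis and a bar for each group mean and SD. Each panel has its own vertical range that does not start at 0. The 3 CHF ketotifen arrays of the brighter Vipr1 probe set sit between 11.29 and 11.96, below every other array, and the 6 CHF arrays of Ramp3 lie above the sham arrays of the same drug arm.

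Adm, the ligand of the CALCRL and RAMP2 or RAMP3 complexes, was measured by 1 probe set (1387219_at) near the low end of the scale. Its signal was 5.05, 5.22 and 5.56 in sham placebo, 5.18, 5.87 and 5.08 in CHF placebo, 5.10, 5.80 and 5.42 in sham ketotifen, and 5.12, 3.92 and 5.09 in CHF ketotifen. The first 3 groups lay in the same range, and the low mean of CHF ketotifen (4.71 ± 0.68, SD, n = 3) came from its second array. The difference between CHF and sham was 0.10 ± 0.34 on placebo, with a 95% interval from -0.66 to 0.86, and -0.73 ± 0.34 on ketotifen (adjusted p = 0.176). Ordered by mean, sham ketotifen (5.44), CHF placebo (5.38) and sham placebo (5.27) were closer to each other than their SDs of 0.35, 0.43 and 0.26, and CHF ketotifen followed.

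The other ligands of these receptors gave no signal above the filter. Calca, which encodes calcitonin and alpha-CGRP, lay between 3.11 and 3.54 over the 12 arrays, and Calcb, which encodes beta-CGRP, between 2.30 and 2.34. Vip lay between 2.19 and 2.26, Adcyap1, which encodes the VIP-related peptide PACAP, between 2.38 and 2.51, and Iapp, which encodes amylin, between 2.11 and 3.09. Adm2 has no probe set on the array. For these genes the arrays give no level in whole lung that could be compared between groups.

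Calcrl, the shared receptor subunit, varied more within groups than between them. Its brighter probe set (1369648_at) read 9.10, 7.32 and 8.53 in sham placebo, 7.00, 9.17 and 8.83 in CHF placebo, 9.83, 8.36 and 9.62 in sham ketotifen, and 8.20, 6.69 and 8.59 in CHF ketotifen. Every group held an array that lay more than 1 log2 unit below the other arrays of its group: sham placebo 2, CHF placebo 1, sham ketotifen 2 and CHF ketotifen 2. The second probe set (1369647_at) was low on the same 4 arrays, at 6.53, 6.62, 7.43 and 6.38, and the probe sets tracked each other across the 12 arrays (r = 0.972, and 0.990 for deviations from group means, a description of arrays that share their RNA).

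The surgery difference of Calcrl on placebo was 0.02 ± 0.69, with an interval from -1.50 to 1.53, so at this spread neither a clear rise nor a clear fall could be resolved. On ketotifen the means were 9.27 ± 0.80 (SD, n = 3) in sham and 7.82 ± 1.00 in CHF, a difference of -1.45 ± 0.69 that was not called (adjusted p = 0.179), and the groups overlapped. The second probe set gave -0.99 ± 0.77 (adjusted p = 0.408). Without the second CHF ketotifen array these became -0.88 and -0.37, and over all fits without 1 array they ran from -1.90 to -0.88 and from -1.58 to -0.37. In order of mean, sham ketotifen (9.27) was followed by CHF placebo (8.33), sham placebo (8.31) and CHF ketotifen (7.82), and each gap was smaller than the larger SD of the neighbouring groups, which ran from 0.80 to 1.17.

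Ramp3 encodes the partner that makes CALCRL an adrenomedullin receptor and alters its sorting after internalization. The 250 bases upstream of its RefSeq transcription start (GRCr8, plus strand, chr14:85741064-85741313) are shown because Ramp3 and Vipr1 are the members called in the average over both arms. They were searched on both strands for short promoter motifs. These were GGGCGG (the GC box bound by Sp1), CCAAT (bound by NF-Y) and TATAA (the core of a box for the TATA-binding protein). The others were ACGTG (core of elements bound by hypoxia-inducible factors), TGACG (core of cAMP elements bound by CREB) and TGANTCA (bound by AP-1). Capitals mark the matches, those on the other strand in the letters of the strand printed.
Ramp3: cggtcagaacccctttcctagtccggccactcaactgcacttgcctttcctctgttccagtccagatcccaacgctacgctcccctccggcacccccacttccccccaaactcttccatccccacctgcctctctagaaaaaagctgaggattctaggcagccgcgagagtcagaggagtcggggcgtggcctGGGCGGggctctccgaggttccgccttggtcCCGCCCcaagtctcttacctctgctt
The window held 2 GC boxes, starting 57 and 26 bases before the start, and none of the other letters searched. A GC box was present in 30.5% of 33469 rat promoter windows of the same length, and the GC content of 61.6% compares with a median of 51.2%.

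The Ramp3 signal (1387389_at) was 5.75, 4.96 and 5.17 in sham placebo, 8.05, 6.57 and 6.20 in CHF placebo, 6.19, 4.70 and 5.95 in sham ketotifen, and 7.01, 6.67 and 6.67 in CHF ketotifen. All 6 CHF arrays were above all 6 sham arrays across the drug arms, since the highest sham array read 6.19 and the lowest CHF array 6.20. On placebo the difference was 1.64 ± 0.48, a 3.12-fold higher signal with a 95% interval from 0.58 to 2.71, and it was not called (adjusted p = 0.126). On ketotifen it was 1.17 ± 0.48 (adjusted p = 0.127), so that in this fit Ramp3 was called when both arms were averaged and in neither arm alone.

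With array weights, which give noisier arrays less influence, Ramp3 was called in each arm, at 1.41 on placebo (adjusted p = 0.0115) and 1.06 on ketotifen (adjusted p = 0.0402). The weighted fit called 3236 and 4139 of all 16536 probe sets in those comparisons, against 28 and 2145 without weights. The average rise of Ramp3 kept its call in each of the 12 fits that left out 1 array. It lost the call, at 0.80 (adjusted p = 0.100), with the RNA quality measure described below as a covariate. That fit called 1385 of all probe sets in the average, against 3467 without the covariate. In the fits without 3 arrays described below the average rise was 0.95 and 1.21. It was not called there, and fewer of all probe sets were called. Between drug arms Ramp3 was not called: ketotifen against placebo gave -0.15 ± 0.48 in CHF and 0.32 ± 0.48 in sham. By mean, CHF placebo (6.94 ± 0.98) and CHF ketotifen (6.78 ± 0.20) were neighbours within their spread, as were sham ketotifen (5.61 ± 0.80) and sham placebo (5.30 ± 0.41).

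Ramp2, the partner that makes CALCRL the main endothelial adrenomedullin receptor, differed between surgery groups on ketotifen. Its probe set (1367701_at) read 12.45, 11.83 and 12.03 in sham placebo, 11.43, 12.09 and 12.21 in CHF placebo, 12.40, 12.66 and 12.07 in sham ketotifen, and 11.60, 10.65 and 11.76 in CHF ketotifen. The CHF ketotifen arrays lay below all sham ketotifen arrays, whereas the placebo groups overlapped. The fall on ketotifen was 1.04 ± 0.30 on the log2 scale (adjusted p = 0.0468, 2.06-fold lower).

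That call sat at the threshold. It held in 3 of the 12 fits without 1 array, with adjusted p from 0.0322 to 0.147 and a smallest difference of -0.70 without the second CHF ketotifen array. On placebo the Ramp2 difference was -0.19 ± 0.30 (adjusted p = 0.767), and the test of the difference between the arms gave -0.85 ± 0.43 (adjusted p = 0.511). Sham ketotifen (12.38), sham placebo (12.10) and CHF placebo (11.91) followed each other within SDs of 0.29 to 0.42, and CHF ketotifen (11.34 ± 0.59) was lowest.

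Ramp1, the partner that makes CALCRL the CGRP receptor, had the smallest SE of the 8 probe sets. Its probe set (1367791_at) read 6.51, 7.13 and 6.31 in sham placebo, 6.75, 6.45 and 7.00 in CHF placebo, 6.65, 6.96 and 6.28 in sham ketotifen, and 6.98, 7.08 and 6.89 in CHF ketotifen. All 4 groups overlapped. The surgery difference was 0.09 ± 0.24 on placebo, with an interval from -0.45 to 0.62, and 0.35 ± 0.24 on ketotifen (adjusted p = 0.351), and the group means from 6.63 to 6.98 lay within the SDs of up to 0.43.

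Vipr1 encodes VPAC1, a Gs-coupled receptor that binds VIP and PACAP with similar affinity. Its upstream window (GRCr8, plus strand, chr8:130187511-130187760) was searched in the same way.
Vipr1: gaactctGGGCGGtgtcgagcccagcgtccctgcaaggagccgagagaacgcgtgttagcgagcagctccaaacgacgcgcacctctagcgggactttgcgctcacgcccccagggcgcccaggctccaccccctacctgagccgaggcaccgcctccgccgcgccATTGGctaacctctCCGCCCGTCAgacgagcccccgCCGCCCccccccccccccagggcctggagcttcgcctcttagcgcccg
It held 3 GC boxes, starting 243, 70 and 48 bases before the start, 1 match of the NF-Y motif as ATTGG at 84 bases, and 1 cAMP element core as CGTCA at 65 bases, which shares its first base with the GC box at 70. The NF-Y motif was found in 34.0% of the windows and the cAMP element core in 18.2%, and the GC content of the window was 72.0%. A TATA core, a hypoxia core or an AP-1 site was not among its letters. These matches are letters in a window and say nothing of binding in the lung. Windows were available for 5 of the 6 members, Ramp2 being the other.

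The brighter Vipr1 probe set (1383695_at) read 14.01, 14.04 and 14.24 in sham placebo, 12.25, 13.47 and 13.51 in CHF placebo, 13.70, 13.72 and 13.50 in sham ketotifen, and 11.82, 11.29 and 11.96 in CHF ketotifen. The CHF ketotifen arrays were the 3 lowest of the 12. The second probe set (1387561_at), at 9.42, 8.57 and 9.16, then 7.21, 8.68 and 8.75, then 9.11, 8.82 and 8.56, then 6.84, 5.67 and 7.25 in the same order of groups, was also lowest in CHF ketotifen, although there the highest array (7.25) passed the lowest CHF placebo array (7.21). Across the 12 arrays the probe sets ran together, with r = 0.965, and 0.887 for deviations from group means.

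Within the ketotifen arm, Vipr1 was lower in CHF than in sham by 1.95 ± 0.30 on the log2 scale (adjusted p = 0.00443, 3.86-fold lower), and its second probe set by 2.24 ± 0.46 (adjusted p = 0.0151, 4.73-fold lower). Within the placebo arm the brighter probe set was lower in CHF by 1.02 ± 0.30, with no overlap and a 95% interval of the difference from -1.67 to -0.37, and it was not called (adjusted p = 0.125). The second probe set differed by -0.84 ± 0.46 (adjusted p = 0.340), and the groups overlapped. Without the first CHF placebo array these differences were -0.60 (adjusted p = 0.282) and -0.33 (adjusted p = 0.776).

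Between the CHF groups, the ketotifen arrays were lower than the placebo arrays by 1.39 ± 0.30 in the brighter probe set, a 2.61-fold lower signal that missed the threshold (adjusted p = 0.0524), and by 1.62 ± 0.46 in the other (adjusted p = 0.113). The same array decided this comparison: without it both probe sets were called, at -1.80 (adjusted p = 0.000532) and -2.13 (adjusted p = 0.0156). Calls over all probe sets rose without it as well, from 201 of 16536 to 1211 of 16475. Between the sham groups ketotifen gave -0.45 ± 0.30 (adjusted p = 0.516) and -0.22 ± 0.46, although the brighter probe set did not overlap. The surgery difference was not shown to depend on the drug: the interaction was -0.93 ± 0.42 (adjusted p = 0.457) and -1.41 ± 0.66 (adjusted p = 0.471), and without that array -1.35 (adjusted p = 0.0249) in the brighter probe set. For the interaction that fit called 303 of 16475 probe sets, against 61 of 16536 with all arrays.

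In order of mean, the brighter Vipr1 probe set ran from sham placebo (14.10 ± 0.12, SD, n = 3) through sham ketotifen (13.64 ± 0.12) and CHF placebo (13.08 ± 0.72) to CHF ketotifen (11.69 ± 0.35). Sham ketotifen and CHF placebo overlapped, and the other neighbours did not. In each of the 12 fits without 1 array, the average fall of both probe sets kept its call. It was lost in the fits without 3 arrays given below, where the differences stayed at -1.42 and -1.38 for the brighter probe set. Those fits also called fewer of all probe sets.

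Counted over the 8 probe sets, the comparisons differed. Vipr1 and Calcrl enter these counts with 2 probe sets each, which ran together across the arrays. In CHF against sham on placebo, limma called 0 of 8 probe sets and 2 had an unadjusted p below 0.05, against 0.169% of all probe sets called (28) and 3326 at that unadjusted level. There 1 probe set was higher (Ramp3) and 1 lower (Vipr1) without overlap, against 12.7% and 10.7% of all probe sets. In CHF against sham on ketotifen, 3 of 8 were called, all lower, against 6.61% of all probe sets called lower and 13.0% in either direction; 3 were lower and 1 was higher without overlap, against 20.8% and 19.2%.

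For ketotifen against placebo in CHF, limma called 0 of 8, with 2 at an unadjusted p below 0.05, against 1.22% of all probe sets (201) and 2833 at the unadjusted level; 1 was lower without overlap, against 15.5%. For ketotifen against placebo in sham it called 0 of 8, with 0 at the unadjusted level, against 0.0847% of all probe sets (14) and 2310; 1 was lower without overlap, against 8.87%. For the interaction it called 0 of 8, with 1 at the unadjusted level, against 0.369% (61) and 1778. The median difference of the 8 probe sets was -1.01 for CHF against sham on ketotifen and 0.05 on placebo, with medians over all probe sets of -0.03 and 0.02. These comparisons share groups with each other, so they are not independent of one another.

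**Figure D2:**
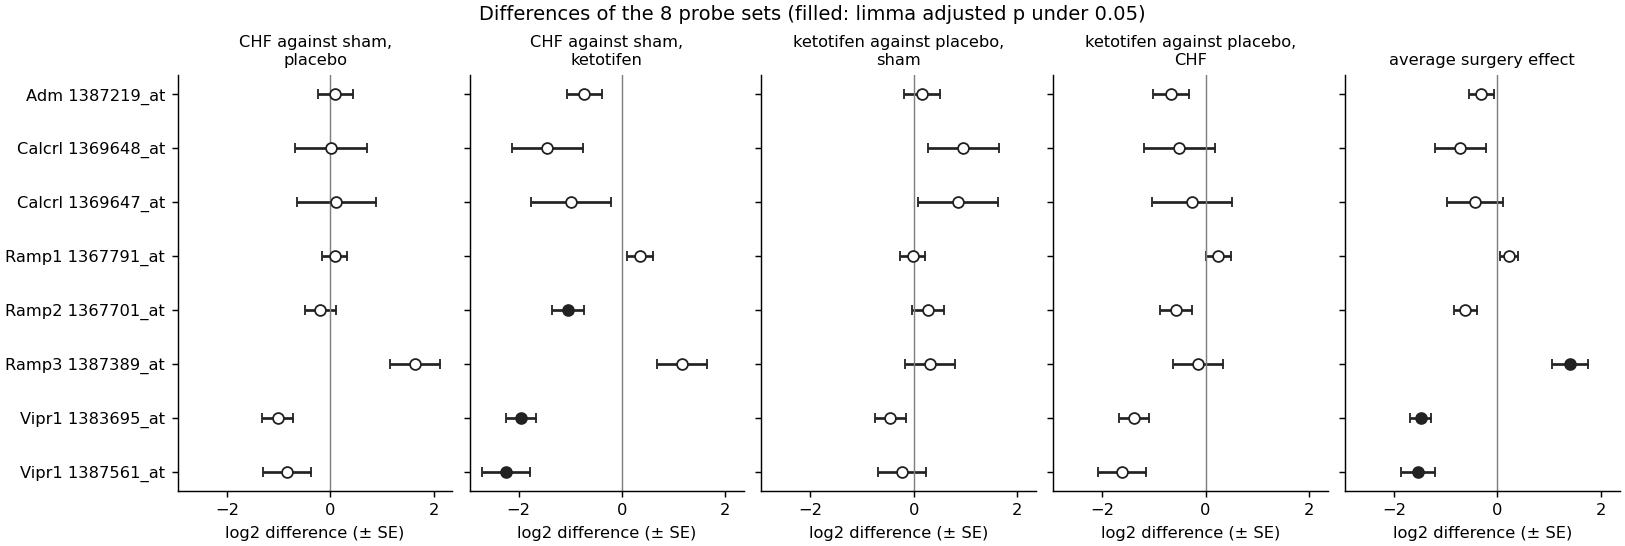
Log2 differences (horizontal axis) of the 8 probe sets in the surgery and drug comparisons and in the average over both arms, with bars for ± SE and filled points for calls at an adjusted p below 0.05 by limma. The filled points are both Vipr1 probe sets and Ramp2 for CHF against sham on ketotifen, and both Vipr1 probe sets and Ramp3 for the average.

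**Figure D3:**
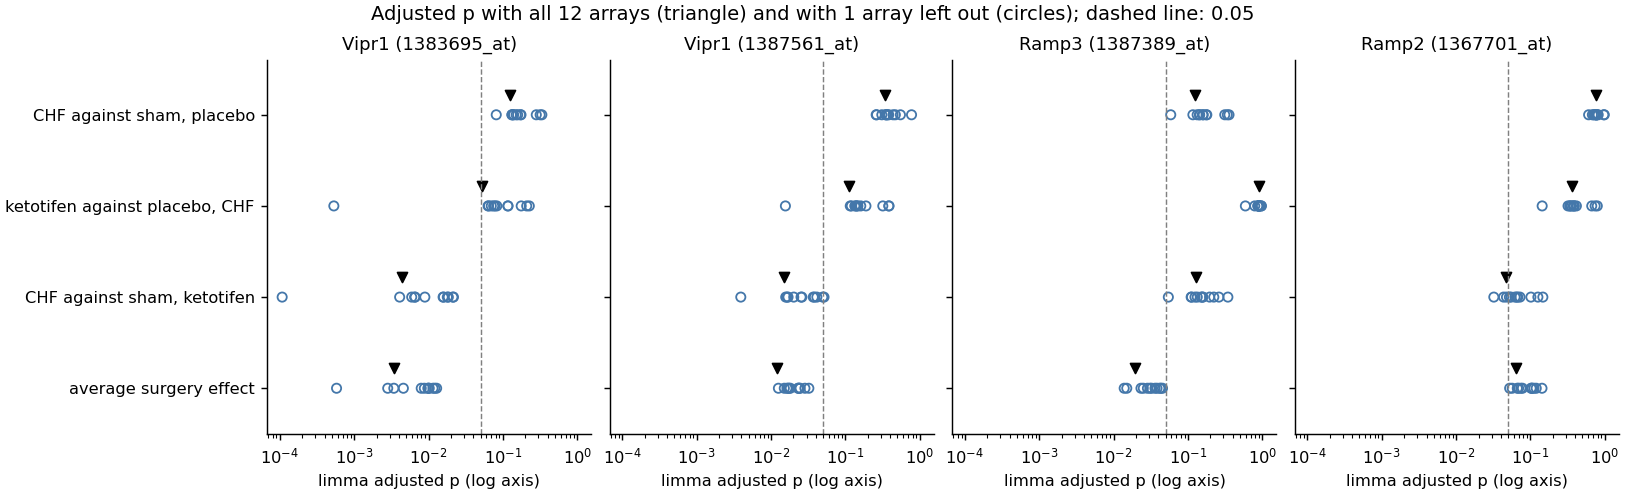
Adjusted p from limma (log axis) of the Vipr1, Ramp3 and Ramp2 probe sets in 4 comparisons, with all 12 arrays (triangles) and with each array left out in turn (circles); the dashed line is at 0.05. The Vipr1 and Ramp3 averages stay left of the line in all 12 fits, while Ramp2 in CHF against sham on ketotifen lies from 0.0322 to 0.147, on both sides of it.

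The members were read beside 41 other genes of the same signalling, of which 37 are on the array and 24 passed the filter. The receptors Calcr, Vipr2 and Adcyap1r1, which bind calcitonin or amylin, VIP and PACAP, did not pass the filter, with no value above 2.54 on any array, so Vipr1 was the only VIP receptor gene above the filter. In CHF against sham on ketotifen 2 of the 24 genes rose, 3 fell and 19 were not called, beside 13.0% of all probe sets called, and the median difference was -0.04. In the average over both arms 3 rose, 3 fell and 18 were not called, beside 21.0% of all probe sets. 1 of those that fell, Adcy9, passed the filter through sham arrays alone, so its direction was in part fixed by the filter. In the other 4 comparisons limma called 0 of 24, with 4, 5, 3 and 3 at an unadjusted p below 0.05 for CHF against sham on placebo, ketotifen in CHF, ketotifen in sham and the interaction in turn. Over all 16536 probe sets, 3326, 2833, 2310 and 1778 reached that level. With array weights limma called 4, 8, 0 and 5 in those comparisons and 9 on ketotifen. Calls over all probe sets rose with the weights as well. They went from 28 to 3236 on placebo, from 201 to 4134 for ketotifen in CHF and from 61 to 1132 for the interaction. For CHF against sham on ketotifen they went from 2145 to 4139. The counts moved with single arrays: the 5 calls on ketotifen became 3 without sham ketotifen 1 or 2, and 2 without sham ketotifen 3 or any 1 CHF ketotifen array. In these fits the calls over all probe sets fell too, from 2145 to between 708 and 1120. Without the arrays with cardiomyocyte signal described below, or without those of largest beta-actin difference, fewer were called on ketotifen and in the average. Those fits also called fewer of all probe sets.

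Among the receptors, Ackr3, a chemokine receptor that also binds adrenomedullin without G protein signalling, read 12.09, 12.08 and 12.11 in CHF ketotifen and 10.88, 10.95 and 11.05 in sham ketotifen. It rose by 1.13 ± 0.25 there (adjusted p = 0.0184) and by 0.61 ± 0.18 on average (adjusted p = 0.0341), while the placebo groups, at 10.35 to 11.58 and 10.86 to 11.37, overlapped. The rise on ketotifen was called in 8 of the 12 fits without 1 array (adjusted p up to 0.0591) and the average rise in 3 of 12 (adjusted p up to 0.0809). Pam, the enzyme that amidates adrenomedullin, CGRP and VIP at their carboxyl end, fell by 0.73 ± 0.20 on ketotifen (adjusted p = 0.0408) and by 0.55 ± 0.14 on average (adjusted p = 0.0238). A dimmer Pam probe set with a mean of 4.30 gave -0.02 on ketotifen (adjusted p = 0.935), so the probe sets disagree. The Pam call on ketotifen held in 4 of the 12 fits without 1 array (adjusted p up to 0.133) and that of the average in 9 (adjusted p up to 0.0571).

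Downstream, the scaffold proteins that desensitize these receptors moved in opposite directions. Arrb2, beta-arrestin 2, read 9.08, 9.67 and 8.89 in CHF ketotifen against 7.41, 7.69 and 7.78 in sham ketotifen, a rise of 1.59 ± 0.30 (adjusted p = 0.0116). Arrb1, beta-arrestin 1, read 7.38, 7.80 and 7.37 against 8.42, 8.14 and 8.39, a fall of 0.80 ± 0.18 (adjusted p = 0.0177). The Arrb1 call there held in 8 of the 12 fits without 1 array (adjusted p up to 0.0624). Averaged over the arms, Arrb2 rose by 1.16 ± 0.21 (adjusted p = 0.00762) and Arrb1 fell by 0.51 ± 0.12 (adjusted p = 0.0192).

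In the cAMP arm of the pathway, Pde3b, a phosphodiesterase that breaks down cAMP, rose by 0.81 ± 0.18 on average (adjusted p = 0.0149). The Pde3b call held in 12 of the 12 fits without 1 array. It was lost with the RNA quality measure as a covariate, at 0.66 (adjusted p = 0.0804). In the fits without 3 arrays described below the rise was 0.55 and 0.86. Creb1, the transcription factor that protein kinase A phosphorylates, fell by 1.37 ± 0.31 on ketotifen (adjusted p = 0.0195), and a dimmer Creb1 probe set with a mean of 4.14 gave 0.07 (adjusted p = 0.909). The Creb1 call held in 9 of the 12 fits without 1 array (adjusted p up to 0.0714). Adcy9, an adenylyl cyclase, reached the filter's level of 4 on 3 arrays only, at 4.34, 4.02 and 4.33, all of them sham, and its average difference of -1.04 ± 0.21 is given as a description. Gnas, the Gs alpha subunit, lay between 12.16 and 12.69 on all arrays and was not called.

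**Figure D4:**
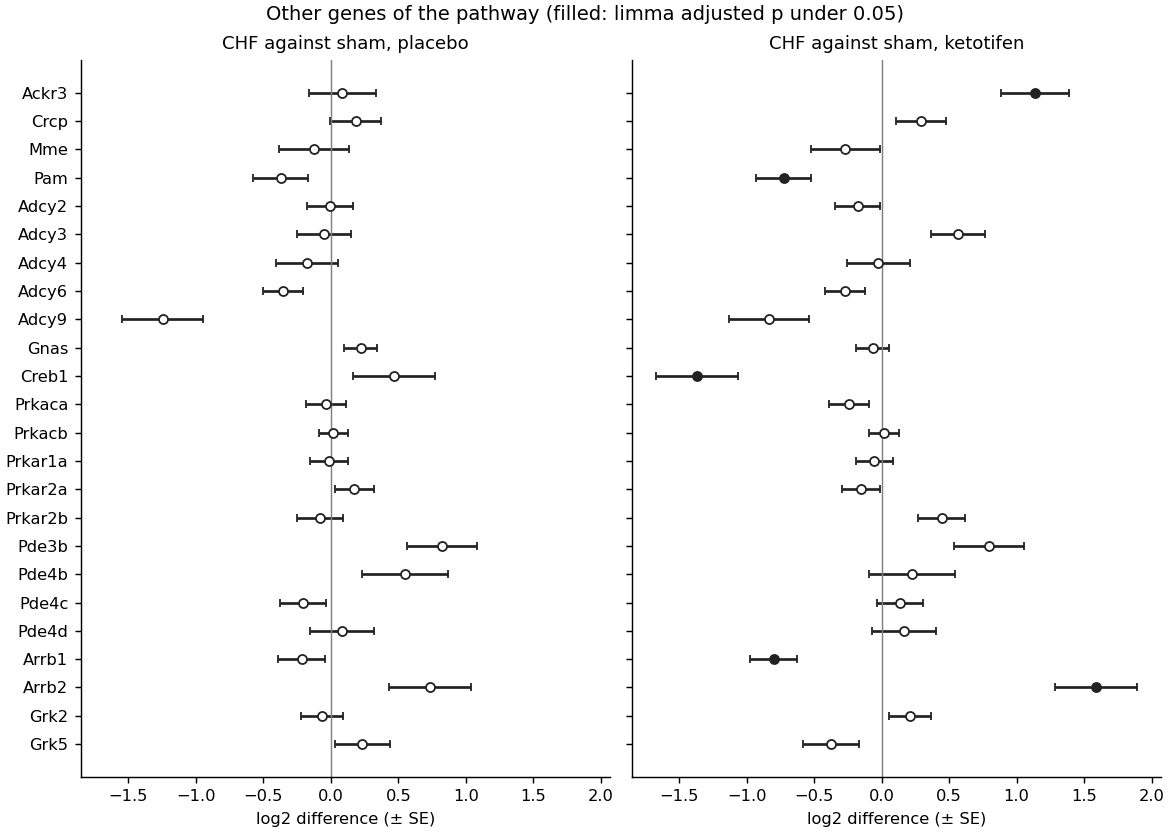
Log2 differences (horizontal axis, ± SE) of the 24 other signalling genes above the filter, ordered by role, for CHF against sham on placebo (left) and on ketotifen (right), with filled points for calls at an adjusted p below 0.05 by limma. On ketotifen Ackr3 and Arrb2 are filled to the right of 0 and Pam, Creb1 and Arrb1 to the left, and no point is filled on placebo.

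In whole lung, fewer cells of a type and less RNA per cell cannot be told apart. The mean signal of 15 endothelial markers above the filter, of 18 listed, lay between 10.07 and 10.29 in sham placebo, 9.54 and 10.08 in CHF placebo, 10.27 and 10.38 in sham ketotifen, and 9.17 and 9.79 in CHF ketotifen. On ketotifen, 8 of the 15 fell in CHF (Car4 by 2.42, Kdr by 1.75, Ptprb by 1.71, Vwf by 1.55, Tek by 1.44, Cldn5 by 1.31, Tie1 by 0.95 and Flt1 by 0.79), 2 rose (Egfl7 1.69 and Emcn 1.10) and 5 were not called. In that comparison 6.61% of all probe sets were called lower and 13.0% in either direction. The 8 markers that fell went in the direction of Vipr1 and Ramp2, and the 2 that rose went the other way. The part of these markers in the Vipr1 and Ramp2 results was not tested.

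Other cell markers also differed between the groups. The mean of 8 macrophage markers lay between 6.45 and 7.96 in sham placebo, 8.23 and 9.31 in CHF placebo, 7.70 and 8.03 in sham ketotifen, and 9.39 and 9.65 in CHF ketotifen, and 7 of the 8 rose in the average over both arms. In that average 6 of 8 mast cell markers rose and 1 fell (median 1.96), and both red cell markers rose (median 3.54). Of all probe sets, 11.0% were called higher and 9.92% lower there. Of the airway markers, 5 of 7 for ciliated cells fell (median -1.61) and 2 of 3 for club cells fell (median -2.52). Of 4 neutrophil markers 1 rose, and limma called 0 of 5 T and NK cell markers, with 0 at an unadjusted p below 0.05. Some of these markers had means below the filter's level of 4 in the lower groups. Alas2 (red cells) had 3.01 and 3.04 in the sham groups, and Dnai1 (ciliated cells) had 2.24 and 2.14 in the CHF groups. Il1r2 (neutrophils) had 2.44, 2.66 and 2.57 outside CHF ketotifen. Their direction was in part fixed by the filter. The mast cell markers Cpa3, Cma1, Tpsb2, Tpsab1 and Fcer1a had 3.55, 3.40, 3.62, 3.28 and 2.82 in sham placebo. In CHF ketotifen the club cell markers Cyp2f4 and Scgb3a1 had 3.97 and 1.99. The filter may have entered the direction of these markers too. The marker shifts run beside the Vipr1 and Ramp3 differences, and their part in them was not tested. The mean of 11 alveolar epithelial markers, which identify the tissue as lung, lay between 12.36 and 13.58 on all arrays. Smooth muscle markers, the cells on which these peptides act as vasodilators, had means between 8.14 and 10.82, and limma called 0 of 7 in CHF against sham on ketotifen, with 0 at an unadjusted p below 0.05, and 0 of 7 in the average, with 1.

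Some arrays stood apart. Cardiomyocyte markers, with means of 2.60 to 2.99 in the CHF groups, reached 9.33 on sham placebo 3 and 7.05 and 10.45 on 2 of the sham ketotifen arrays (1 and 2). The difference between 3-prime and 5-prime probe sets of beta-actin, a measure of RNA integrity, was 3.45 to 4.23 in sham placebo and 2.91 to 4.52 in sham ketotifen, against 2.90 to 3.41 in CHF. CHF ketotifen arrays 1 and 3 were the closest pair (SD of their difference over probe sets 0.258); averaging them into 1 left the Vipr1 calls in place and took that of Ramp2 (adjusted p = 0.0633).

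Without the 3 arrays with cardiomyocyte signal, 1 sham ketotifen array was left, whose spread was taken to be that of the other groups. Vipr1 then differed by -1.81 (adjusted p = 0.206) and -1.97 (adjusted p = 0.272) on ketotifen, Ramp2 by -0.74 (adjusted p = 0.466), and no member was called, in a fit that called 28 of 16277 probe sets in that comparison. The averages were -1.38 (adjusted p = 0.0917) and -1.38 (adjusted p = 0.157) for Vipr1. Without the 3 arrays of largest beta-actin difference (sham placebo 2 and 3 and sham ketotifen 2), Vipr1 differed by -1.91 (adjusted p = 0.0363) and -2.25 (adjusted p = 0.0571) on ketotifen, Ramp2 by -0.90 (adjusted p = 0.142), and the Vipr1 averages were -1.42 (adjusted p = 0.0644) and -1.73 (adjusted p = 0.0894).

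The genes whose signal followed each member most closely over the 12 arrays were named by Pearson's r, which groups, RNA and array quality all enter. For Vipr1 these were Mapt (r = 0.986), Ptprb (0.985), Vezf1 (0.983), Shank3 (0.979) and Daam1 (0.979), where Ptprb is an endothelial phosphatase from the marker list. For Ramp2 they were Myzap (r = 0.975), Tbc1d10a (0.972), Fam13c (0.967), She (0.960) and Car4 (0.959), of which Car4 is another endothelial marker. The r of deviations from group means was 0.974 for Mapt and 0.962 for Myzap.

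For Ramp3 the closest were Colgalt1 (r = 0.950), Serp1 (0.938), Nans (0.936), Sf3b5 (0.931) and Nedd8 (0.931). Calcrl ran with Slco2a1 (r = 0.950), a prostaglandin transporter, followed by Tmem47, Adnp, Prkd3 and Kank2, and the r of deviations from group means for Slco2a1 was 0.983. Adm ran with Smad7 (r = 0.953), then Tnik, Ppm1f, Rock2 and Ccnj, and Ramp1 with Mrps18a (r = 0.921), then Ccdc12, Rps16, Gpsm3 and Dek. Between members, Ramp2 and the brighter Vipr1 probe set had r = 0.808, and Ramp3 and that probe set had r = -0.732.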

How the data were processed

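Whole-lung rat RNA was measured on 12 1-colour Affymetrix arrays. The deposited values are log2 intensities that the authors made with GCRMA under R 2.5.0, per the submitters' processing notes; they were used as deposited. Of 31099 probe sets, 57 controls were left out, 16536 reached log2 4 in at least 3 arrays, and 15809 to 16056 reached it in each array. Symbols came from GEO's platform annotation (20826 probe sets with 1 symbol, 436 with several, 9780 with none). limma 3.58.1 (R 4.3.3) fitted 4 group means with an intensity trend (8 residual degrees of freedom), two-sided, over 6 comparisons; the script was tested on simulated data. The number of arrays limits the precision. Named are the members, the called pathway genes of smallest p (up to 6 per comparison), the pathway's ligands and receptors, and the 5 genes closest to each member. The members and lists were chosen with earlier results of these data known. Promoter windows came from RefSeq (GRCr8). Replicate numbers were not treated as pairs, because the labels do not say that they pair the arrays. Alternatives changed the filter, trend, normalization, weights, covariate and arrays.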

Additional observations from a re-analysis of the deposited data

How the results depend on the processing

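Of 602 values of the 48 member results under alternatives other than leaving out 1 array, 563 kept their direction and their side of the threshold, 18 lost a call, 7 gained one and 14 changed sign, none of the last in a result that had been called. Array weights (estimated gene by gene) raised the number of called member probe sets from 0 to 2 for CHF against sham on placebo and to 2 for ketotifen in CHF, where median-centred arrays gave 1. Calls over all 16536 probe sets rose with the weights as well, from 28 to 3236 on placebo and from 201 to 4134 for ketotifen in CHF. Median-centred arrays called 267 of 16543. For CHF against sham on ketotifen and for the average (3 called each), member calls fell most in 2 fits. These left out the arrays of largest beta-actin difference or those with cardiomyocyte signal. Each left 1 array in a group, called fewer of all probe sets and was chosen after seeing the data. The cause of the lower counts was not tested beyond the smaller number of arrays. Further fits lost Ramp2 on ketotifen, and the covariate also lost Ramp3 in the average. Leaving out 1 array gave 0 to 2 called for ketotifen in CHF, 1 to 3 for CHF against sham on ketotifen, 0 to 1 for the interaction and 3 to 3 for the average. The gains came without CHF placebo 1, where 1211 and 303 of all 16475 probe sets were called for ketotifen in CHF and the interaction. The low count of 1 came without CHF ketotifen 2, where 708 of 16443 were called.

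For CHF against sham on placebo, Calcrl changed sign with the beta-actin covariate (-0.75 and -0.88) and without the arrays of largest beta-actin difference (-0.76 and -0.95), Ramp1 without the arrays with cardiomyocyte signal (-0.086), and Ramp2 with array weights (0.00079). For ketotifen in CHF, Ramp3 changed sign with array weights (0.18). For ketotifen in sham, Adm changed with array weights (-0.060), Ramp1 with median-centred arrays (0.025), quantile normalization (0.012), array weights (0.11) and the covariate (0.087), and Ramp2 without either set of 3 arrays (-0.21 and -0.066). Leaving out 1 array moved the placebo surgery difference of Adm from -0.14 to 0.25, Calcrl from -0.48 to 0.68 and from -0.49 to 0.75, Ramp1 from -0.086 to 0.33 and Ramp2 from -0.34 to 0.047. It moved ketotifen in CHF from -1.17 to 0.061 and from -0.88 to 0.36 for Calcrl and from -0.53 to 0.40 for Ramp3, ketotifen in sham from -0.016 to 0.33 for Adm and from -0.19 to 0.22 for Ramp1, and the Ramp3 interaction from -0.93 to 0.084. The cause was not tested.

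Same-numbered arrays of different groups did not clearly deviate together (r from -0.347 to 0.263 over 18 pairs, and 3 of 12 arrays were closest to their own number). The median r was 0.0508 for these pairs and -0.0325 for the 36 pairs of different number. The labels do not say whether the numbers pair the arrays, and correlations of so few arrays cannot exclude it. With the replicate number as a block, CHF against sham on ketotifen called 2 member probe sets and 1899 of all probe sets, Ramp2 losing its call (adjusted p = 0.0684), and the average called 3 and 3290. Ramp2 on ketotifen also lost its call without a filter (adjusted p = 0.0981), without the intensity trend (0.0552), with the covariate (0.0740) and with only those groups fitted (0.0651). Of the other signalling genes, CHF against sham on ketotifen called 5, and 2 with the closest arrays averaged and 9 with array weights, and the average called 6, and 3 with the covariate. Over all probe sets, the ketotifen comparison called 2145, and 878 and 4139 under those alternatives. The average called 3467, and 1385 with the covariate. Ackr3 in the average lost its call without a filter (adjusted p = 0.0706), with the covariate (0.0582) and with the closest arrays averaged (0.0640), and Pam on ketotifen kept its call in 5 of 13 alternatives. Adm and the other genes near log2 4 are limited by signal over background.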
